A study of Mus musculus with 27 samples.

Results

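The gene followed here is Vdr, which encodes the vitamin D receptor, in NIH/3T3 cells after a forskolin pulse. All probe sets that the platform annotation assigns to Vdr were taken, which gave 1 gene of 8252 named on the array, with 2 of the 12488 probe sets, 99964_at and 99965_at. Both passed the filter on low values, as did 7453 probe sets in all. Vdr was chosen by its measured values in these same data, namely its fall in intensity from the end of the pulse, so its differences from 0 h are given as a description without a test. What was tested is its course after the fall, from 6 h to 48 h, and the behaviour of other genes of the vitamin D pathway.

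NIH/3T3 is an established mouse fibroblast line, here measured as total RNA on 27 Affymetrix mouse arrays. Serum was lowered in steps, after which every culture received 15 µM forskolin, which activates adenylyl cyclase and so raises cyclic AMP, for 2 h in serum-free medium, and was then rinsed and left without serum. The 9 groups are the harvest times, from 0 h, the end of the pulse, to 48 h at intervals of 6 h, with 3 experiments called biological replicates in the labels. No group without forskolin was analysed here, so all groups share the pulse and the serum-free medium, and the effect of the drug, of its removal and of the medium cannot be told apart.

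The vitamin D receptor is a nuclear receptor. It binds calcitriol, the hormonal form of vitamin D, pairs with a retinoid X receptor and binds DNA at response elements near its target genes, of which Cyp24a1, the enzyme that breaks calcitriol down, is the best known. Agents that raise cyclic AMP have been reported to raise Vdr mRNA in NIH/3T3 cells, and the zinc finger proteins SNAI1 and SNAI2 have been reported to repress the human gene.

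In the RefSeq annotation of GRCm38.p6, Vdr occupies 53870 bases on the minus strand, chr15:97854427-97908296. The stretch around its annotated start, chr15:97908247-97908546 on the minus strand, holds 250 bases before the start and 50 bases after it. It is shown because Vdr moved together with several other genes, and it is printed 5′ to 3′ with the matches to the searched motifs in capitals.

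Vdr promoter: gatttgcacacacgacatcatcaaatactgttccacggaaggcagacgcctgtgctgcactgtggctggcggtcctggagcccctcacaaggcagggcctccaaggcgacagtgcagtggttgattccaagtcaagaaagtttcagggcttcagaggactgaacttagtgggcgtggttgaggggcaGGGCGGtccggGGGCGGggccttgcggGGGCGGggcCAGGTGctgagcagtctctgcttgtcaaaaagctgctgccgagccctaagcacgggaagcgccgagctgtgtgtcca

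The capitals mark 3 GC boxes (GGGCGG), the motif of Sp-type factors, whose first bases lie 63, 52 and 36 bases before the start, and 1 E-box of the kind that Snail proteins bind (CAGGTG), 27 bases before it. Both strands were searched, and no match overlaps another. Of 32851 mouse promoters of this length, 35.7% hold a GC box and 20.2% hold CAGGTG. The full cyclic AMP response element (TGACGTCA, in 1.79% of promoters), its short form (TGACG, 20.8%), the AP-1 site (TGANTCA, 7.81%) and the TATA box (TATAAA, 13.6%) gave 0 matches in these 300 bases. The short form lies inside the full element. The window is 61.3% G and C, against a median of 52.7% over all promoters. A match is a description of the letters, not evidence that a factor binds, and a missing match says nothing of sites elsewhere in the gene.

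Vdr was bright at the end of the pulse and dim at every later harvest. For 99964_at the deposited intensities at 0 h were 5800.3, 3062.1 and 3328.4 in experiments 1, 2 and 3, and at 6 h they were 185.2, 164.7 and 194.5. For 99965_at they were 1485.7, 1912.5 and 1510.0 at 0 h, and 145.4, 234.3 and 143.4 at 6 h. In each experiment and on both probe sets the 6 h value lay far below that of 0 h, and no later value came near the 0 h range. Experiment 1 had the highest 0 h value on 99964_at but the lowest on 99965_at.

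Over the 24 arrays from 6 h to 48 h, 99964_at ran from 46.2 to 224.2 with a median of 122.5. On 99965_at the same arrays ran from 59.4 to 234.3 with a median of 125.1. The lowest 0 h array exceeded the highest later array 13.7-fold on 99964_at and 6.34-fold on 99965_at, so the groups did not overlap. Of the 7453 probe sets tested, 2.48% had all 0 h arrays above all later ones. Ordered by this gap on the log2 scale, the Vdr probe sets were the first and the second, with gaps of 3.72 and 2.63. The gap belongs to the values for which Vdr was picked, and nothing is read from that order.

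**Figure D1:**
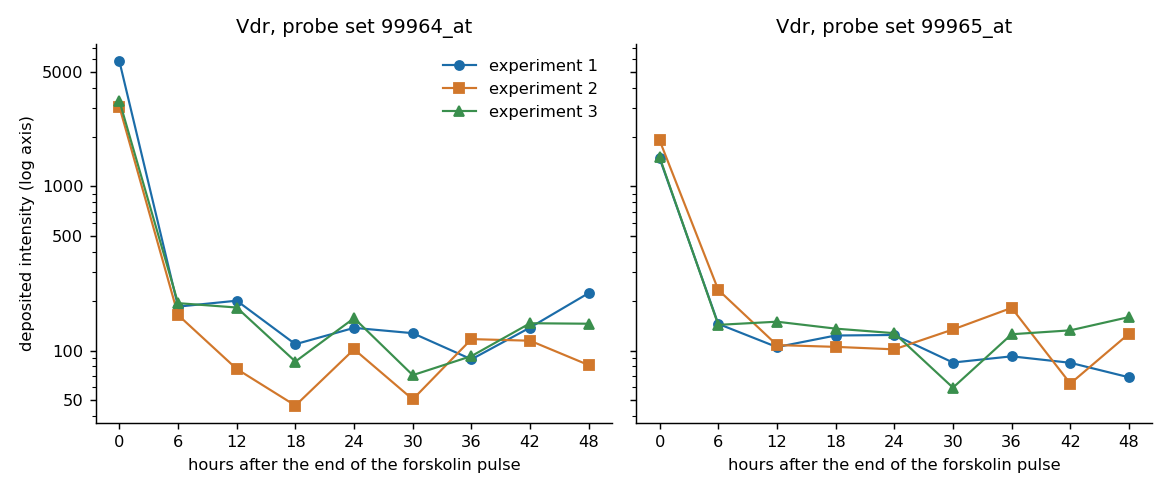
Deposited intensity of Vdr on a log axis against hours after the 2 h forskolin pulse, 1 panel for each probe set, with 1 coloured line and marker for each of the 3 experiments. Both panels drop between 0 h and 6 h, and no array from 6 h to 48 h exceeds 224.2 on 99964_at or 234.3 on 99965_at.

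The share of the 0 h intensity that was left at 6 h, taken within each experiment, was 4.81% ± 1.42 (SD, n = 3) on 99964_at and 10.5% ± 1.51 on 99965_at. At 24 h it was 3.48% ± 1.19 and 7.38% ± 1.79. The lowest shares on 99964_at were those of 18 h, 1.99% ± 0.54, and 30 h, 1.99% ± 0.30. On 99965_at 30 h was lowest, at 5.55% ± 1.55. By 48 h the shares were 3.63% ± 0.88 and 7.28% ± 3.04, so both probe sets were still far below 0 h at the last harvest.

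On the log2 scale, after quantile normalization and with 12.1 added to each intensity, 99964_at fell from 11.92 ± 0.53 (SD, n = 3) at 0 h to 7.62 ± 0.13 at 6 h, a difference of −4.30 ± 0.50. The difference from 0 h was −4.74 ± 0.60 at 24 h and reached −5.49 ± 0.45 at 18 h. For 99965_at the level went from 10.68 ± 0.18 to 7.53 ± 0.36, a difference of −3.15 ± 0.19 at 6 h and −3.64 ± 0.31 at 24 h. The 8 differences all rest on the same 3 arrays of 0 h. Over the array 6.09% of probe sets passed the limma test at 6 h and 6.92% at 24 h. Among all tested probe sets, 16 fell by more than 2 at 6 h, 3 by more than 3 and 1, 99964_at, by more than 4. The second largest fall was that of Usp2, a ubiquitin-specific protease, by −3.51. The deposited unit has a floor of unknown height for each probe set, so the smaller percentage left on 99964_at than on 99965_at is not read as a difference in mRNA.

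**Figure D2:**
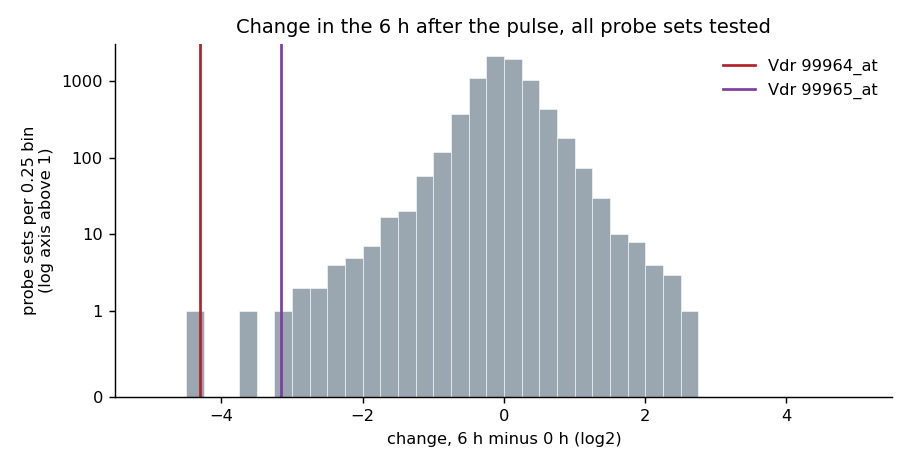
Histogram of the change from 0 h to 6 h over the 7453 probe sets tested, on the log2 scale, with the number of probe sets on a log axis and the Vdr probe sets marked. Vdr lies at −4.30 and −3.15, at the far left of the distribution.

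The fall was also expressed as the time in which the intensity would have halved had it fallen at a constant rate from 0 h to 6 h. It was 1.21 h, 1.42 h and 1.46 h in experiments 1, 2 and 3 on 99964_at, with a mean of 1.36 h ± 0.14 (SD, n = 3). On 99965_at it was 1.79 h, 1.98 h and 1.77 h, with a mean of 1.85 h ± 0.12. The experiments lay close together, and the probe sets did not overlap. No harvest fell between 0 h and 6 h, so the shape of the fall is not known. This time equals the half-life of the mRNA only if synthesis had stopped at 0 h and the 6 h signal held no background, neither of which was measured. In bulk RNA, fewer cells with Vdr mRNA and less Vdr mRNA per cell cannot be told apart.

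The probe sets followed each other over all 27 arrays, with r = 0.91, which describes the single step from 0 h to the rest. Over the 24 later arrays r was 0.22, and 0.39 once the mean of each experiment was removed. Within the low phase they shared little of their variation.

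By mean log2 level, 99964_at ran in the order 0 h, 6 h, 48 h, 12 h, 24 h, 42 h, 36 h, 30 h and 18 h. For 99965_at the order was 0 h, 6 h, 36 h, 24 h, 12 h, 18 h, 48 h, 42 h and 30 h. Both put 0 h first and 6 h second. On each probe set the ranges of all 7 other neighbouring pairs in this order overlapped. Sorting by mean puts the closest means side by side, so this overlap is not read as a lack of change. On 99964_at the means of 18 h, 30 h and 36 h lay below 6.77, the lowest mean log2 value that passed the filter, as did those of 30 h (6.62) and 42 h (6.64) on 99965_at.

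After 6 h neither probe set changed by the test between neighbouring harvests. With limma, 16 differences were tested, 7 steps and 48 h against 24 h on each probe set, and 0 passed at an adjusted p below 0.05 (smallest adjusted p = 0.999), with 2 below 0.05 before adjustment. Both of those were on 99964_at. From 12 h to 18 h its intensities went from 201.3, 77.2 and 182.9 to 109.3, 46.2 and 85.7, lower in 3 of 3 experiments, a difference of −0.84 ± 0.35 (SE, limma unadjusted p = 0.0263, adjusted p = 1.00). This fit leaves out the pairing by experiment. Within experiments 1, 2 and 3 the log2 changes were −0.84, −0.73 and −0.94. With the experiment as a replicate block this step was not called either (limma adjusted p = 0.273). By 24 h the intensities of 99964_at were 137.5, 101.8 and 157.6, higher in 3 of 3, with a difference of 0.75 ± 0.35 (limma unadjusted p = 0.0443, adjusted p = 1.00, and 0.956 with the block). The matching differences on 99965_at were −0.011 ± 0.35 and 0.012 ± 0.35. At 30 h 99964_at was at 127.6, 50.4 and 70.8, again lower than at 24 h in 3 of 3, by −0.70 ± 0.35 (limma unadjusted p = 0.0579). Among all probe sets, limma called 0% in each of these 3 steps, with 243, 100 and 90 below an unadjusted p of 0.05, and 0.0134%, 1 probe set, from 6 h to 12 h. Between 24 h and 48 h, 0.0268% were called, and the Vdr probe sets differed by 0.10 ± 0.35 and −0.069 ± 0.35. A change of 1 sign in 3 of 3 experiments also occurred from 6 h to 12 h on 99964_at (lower) and from 30 h to 36 h on 99965_at (higher). The share of all probe sets with such agreement was not taken, so nothing is read from it.

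Any variation among the 8 later harvests was tested at once. The means of 99964_at spanned 1.19 on the log2 scale (limma F test, adjusted p = 0.444) and those of 99965_at spanned 0.91 (adjusted p = 1.00), while 1.33% of all probe sets passed. With the experiment as a replicate block 99964_at passed (adjusted p = 0.0429), as did 12.4% of all probe sets, and 99965_at did not (adjusted p = 0.440). That call was not kept with the block when the 6 h arrays were left out (adjusted p = 0.237), when the 18 h and 30 h arrays of experiment 1 were left out (0.0531), or without replicate 1 (0.120), replicate 2 (0.136) or replicate 3 (0.532). It was kept without the 12 h arrays (0.0447), of which those of experiments 1 and 3 carry a differently worded source label.

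The series was designed to find daily rhythms, and Vdr showed none by the test. A 24 h cosine fitted to the 24 later arrays with a linear term had an amplitude of 0.18 (SE of the cosine term 0.17) on 99964_at and 0.07 (0.14) on 99965_at, with a limma adjusted p of 1.00 for each. The linear term was −0.16 ± 0.21 per day (SE, limma adjusted p = 0.770) on 99964_at and −0.30 ± 0.18 per day (adjusted p = 0.411) on 99965_at. Without the 6 h arrays the term on 99964_at turned to 0.088. Of all probe sets, 0% passed the rhythm test by limma (248 of 7453 at an unadjusted p below 0.05) and 6.13% the trend test. With 3 arrays a harvest, an amplitude of the size of these standard errors was not detectable.

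**Figure D3:**
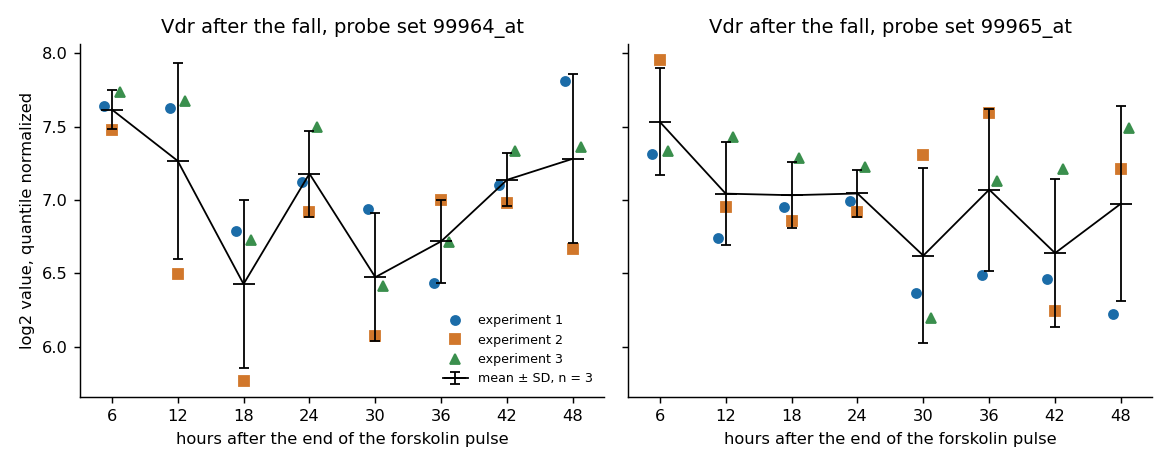
Log2 values of Vdr from 6 h to 48 h, 1 panel for each probe set, with the 3 experiments as points and the mean and SD of each harvest in black. The means of 99964_at span 1.19 and those of 99965_at 0.91. The points of neighbouring harvests overlap, except that on 99964_at those of 18 h all lie below those of 24 h. That step was not called by limma. The share of all probe sets with such a lack of overlap was not taken, so nothing is read from it.

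The courses most like that of Vdr over all 27 arrays belonged to genes that also dropped after 0 h. On 99964_at these were Srxn1, which encodes the antioxidant enzyme sulfiredoxin (r = 0.95), Dgat1, an enzyme of triglyceride synthesis (0.93), and Ramp3, a partner of the calcitonin receptor-like receptor (0.92). They were followed by Rrp1b, Pdpn, Bag3, Fdx1, Acsl4, Gpalpp1 and Rgs2, with r from 0.90 to 0.87. On 99965_at Dgat1 (0.93), Srxn1 (0.92) and Ramp3 (0.90) led too, followed by Fdx1, Slc25a25, Rrp1b, Ugdh, Mcam, Acsl4 and Tnc, down to 0.86. The most opposite courses were those of Snai2 (−0.93), Ghr, the growth hormone receptor (−0.92), and Aplf (−0.91) on 99964_at. On 99965_at they were Lama4 (−0.93), Snai2 (−0.91) and Runx1t1 (−0.90). All these values share the arrays of 0 h and the scaling of each array, so they describe mostly the step after 0 h.

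The values of the genes most like Vdr are given here beside its own. Because Vdr was chosen for its fall and these genes rank behind it by likeness or gap, nothing is read from the order of their shares. Srxn1 had intensities of 2670.6, 1967.7 and 2430.6 at 0 h and 291.8, 338.8 and 294.7 at 6 h, which left 13.4% ± 3.34 (SD, n = 3). Dgat1 went from 4222.7, 3458.6 and 2427.1 to 485.2, 656.5 and 423.7, which left 16.0% ± 3.96. Ramp3 went from 5871.1, 3906.3 and 3130.6 to 768.6, 1048.5 and 655.8, which left 20.3% ± 6.90. These 3 genes were named for likeness or gap, so nothing is read from their lack of overlap between 0 h and later harvests. Over all tested probe sets 2.48% had every 0 h array above every later one. The other genes with the widest gaps were Acta2, smooth muscle actin, with 15.8% left, Pdpn with 22.1%, the mitochondrial carrier Slc25a25 with 23.3%, and Mcam, Tnc, Acsl4 and Pnp, with up to 42.4% left. Tnc, the matrix protein tenascin C, went from 34.7% at 6 h to 14.1% by 24 h. Since a floor of background weighs more on a dim probe set, these shares are not rates of decay. A dimmer probe set of Srxn1 differed by −0.04 at 6 h and did not show the fall.

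**Figure D4:**
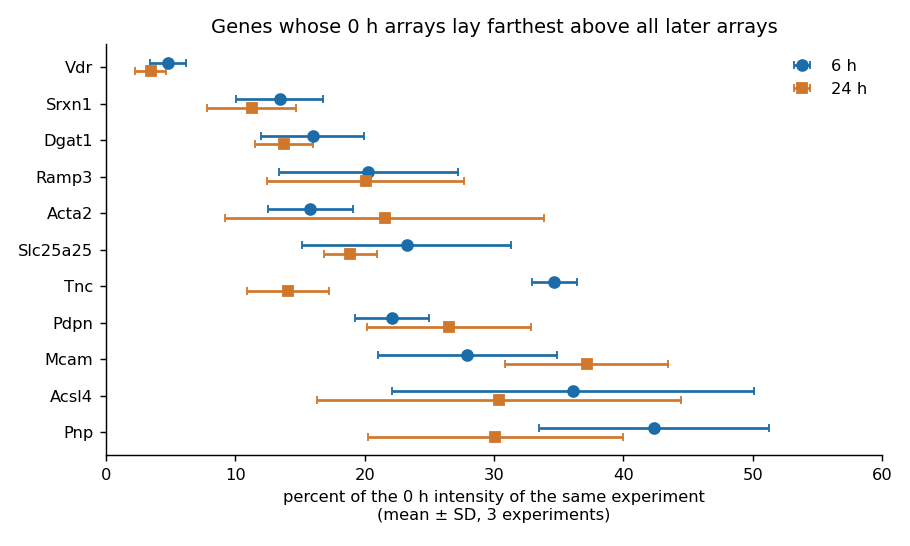
Percentage of the 0 h intensity left at 6 h and at 24 h for Vdr (99964_at) and for the 10 other genes with the widest gap between 0 h and all later arrays, with the mean as a circle (6 h) or square (24 h) and the SD over 3 experiments as a bar. Vdr lies at 4.81% and 3.48%, and the other genes run from 13.4% (Srxn1) to 42.4% (Pnp) at 6 h.

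Likeness was also taken without the 0 h arrays and with the mean of each experiment removed. The 5 genes nearest to 99964_at were then Cpe (r = 0.81), Chchd3 (0.76), Man1a (0.74), Sesn1 (0.72) and Fam8a1 (0.71). Nearest to 99965_at were Fntb (0.72), Slc44a2 (0.71), Arhgef1 (0.71), Flt3l (0.67) and Fut8 (0.67). The 5 genes of each probe set share no name. They are the highest values among all genes kept by the filter, and on this measure the Vdr probe sets had r = 0.39 with each other. The names are therefore not read as genes that vary with Vdr.

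Rxra, a retinoid X receptor that pairs with VDR, had intensities from 928.3 to 1388.2 at 0 h and from 729.8 to 1522.1 later, with a difference of 0.05 ± 0.26 at 6 h (SE, limma adjusted p = 0.963). Rxrb ran from 1046.4 to 1870.7 and from 1083.4 to 2371.5, with −0.03 ± 0.26 (adjusted p = 0.979). For both, the 0 h and later arrays overlapped. Of 14 measured partners and coregulators, among them the coactivators Ncoa1 (0.07 ± 0.20) and Med1 (0.10 ± 0.23), 0 rose and 0 fell at 6 h or at 24 h by limma, with 1 below an unadjusted p of 0.05 at either time. With array weights 1 partner passed at 6 h. With the experiment as a block 1, the proteasome ATPase subunit Psmc5, fell by 0.40 at 6 h (adjusted p = 0.0173, against 0.0703 without the block). Over all 5643 genes 4.11% rose and 2.55% fell at 6 h, and 4.39% and 2.89% at 24 h. With the block 18% of all genes passed at 6 h and 19.8% at 24 h, against 1 of these 14 at either time.

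Most genes of vitamin D metabolism were too dim to follow. Of 7 such genes on the array 2 passed the filter, Dhcr7, which diverts a precursor from vitamin D to cholesterol (0.66 ± 0.34 at 6 h, limma adjusted p = 0.330), and Pdia3, a protein disulfide isomerase described as a membrane binder of the hormone (−0.17 ± 0.51). With the block Dhcr7 passed (adjusted p = 0.0411). Among 21 known targets of the receptor on the array 7 passed the filter, and 0 rose and 0 fell at either time by limma (0 at an unadjusted p below 0.05), Cdkn1a among them at 0.22 ± 0.25 at 6 h. Another probe set of Cdkn1a differed by 0.80 at 6 h and was not called either (limma adjusted p = 0.262). Shares over all genes were 4.11% higher and 2.55% lower at 6 h, and 4.39% and 2.89% at 24 h. For 7 targets, 0 calls lie near those shares. With the block 1, the thrombomodulin gene Thbd, fell at 6 h, by 0.61 (adjusted p = 0.0453), where 18% of all genes passed. Cyp24a1, the classical target, had a median intensity of 21.9 and a range from 2.9 to 44.1 over the 27 arrays and did not pass the filter. The level of the hormone in the medium was not measured.

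Factors that have been reported to act on the Vdr gene moved in both directions. Snai2 had intensities of 1159.6, 1471.8 and 1690.5 at 0 h, and 2722.0, 2970.5 and 2840.8 at 6 h, with every later array between 2722.0 and 3720.8. It rose by 0.97 ± 0.11 at 6 h (SE, limma adjusted p = 6.00e-06) and by 1.27 ± 0.11 at 24 h (1.45e-07). Its relative Snai1 went the other way, from 1578.1, 1293.0 and 1161.0 at 0 h to 436.5, 586.6 and 575.6 at 6 h. Snai1 fell by 1.34 ± 0.16 at 6 h (limma adjusted p = 6.68e-06) and by 1.14 ± 0.16 at 24 h (4.73e-05), and its later arrays, up to 710.1, did not reach those of 0 h. Over all tested probe sets 2.48% had every 0 h array above every later one. The share with the opposite order was not taken, so nothing is read from the lack of overlap of Snai2. Snai2 and Snai1 kept their calls in all 13 alternatives.

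Of 15 measured factors, 1 rose and 3 fell at 6 h, and 3 rose and 3 fell at 24 h, where over all genes 4.11% and 2.55%, and 4.39% and 2.89%, did. The others that fell at 6 h were Cebpb, a transcription factor induced by cyclic AMP (−1.15 ± 0.24, limma adjusted p = 0.00322), and Crem, the cyclic AMP response element modulator (−1.19 ± 0.31, adjusted p = 0.0212). Another probe set of Crem was not called, at −0.87 at 6 h (limma adjusted p = 0.419) and −0.78 at 24 h (0.474). At 24 h Rara, a retinoic acid receptor (0.99 ± 0.21, adjusted p = 0.00501), and Nr3c1, the glucocorticoid receptor (0.90 ± 0.24, adjusted p = 0.0243), had risen beside Snai2. Several calls were lost under alternatives: Cebpb lost its call without replicate 2 (adjusted p = 0.0647), Crem without replicate 1 (0.227), 2 (0.152) or 3 (0.103), Rara without replicate 2 (0.101) or 3 (0.110), and Nr3c1 without replicate 1 (0.230), 2 (0.193) or 3 (0.121) and with values scaled as deposited (0.0535). At 24 h the call of Crem was also lost without the filter (0.0501). With the block 7 factors passed at 6 h, 3 higher and 4 lower, against 18% of all genes. Creb1, the cyclic AMP response element binding protein, differed by 0.44 ± 0.56 and Sp1 by 0.56 ± 0.24 at 6 h, neither called without the block. With the block Sp1 passed (limma adjusted p = 0.0441) and Creb1 did not (0.574).

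**Figure D5:**
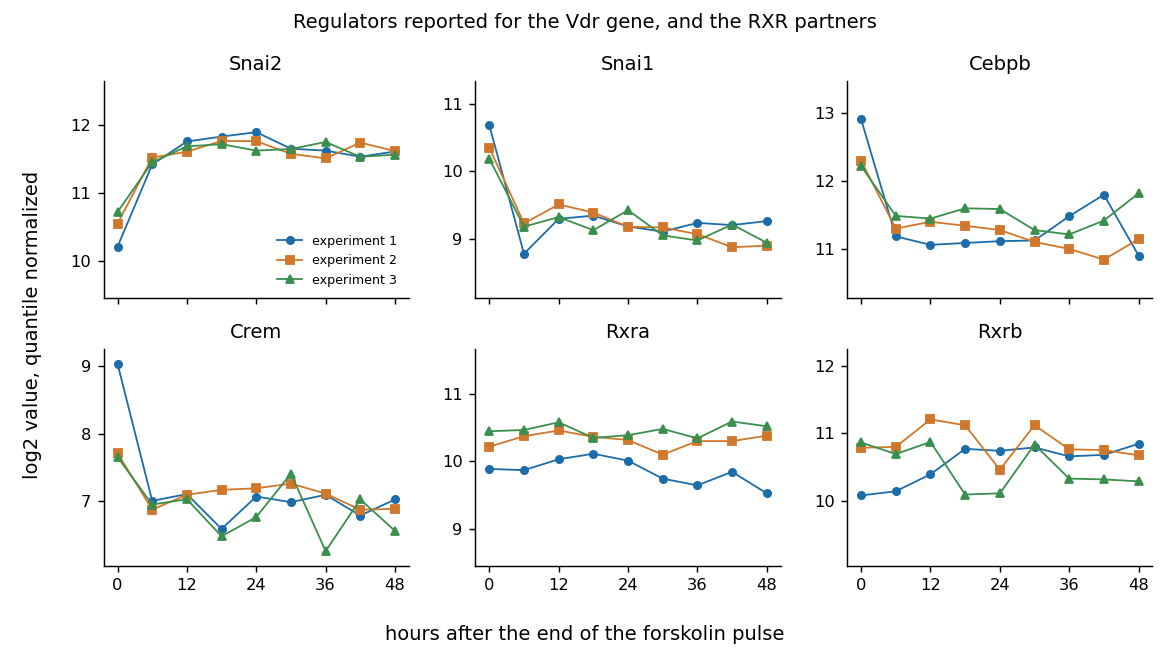
Log2 values against hours after the pulse for Snai2, Snai1, Cebpb, Crem, Rxra and Rxrb, 1 panel for each gene with axes of equal height and 1 line for each of the 3 experiments. Snai2 steps up by 0.97 on average at 6 h, Snai1, Cebpb and Crem step down, and Rxra and Rxrb overlap between 0 h and later harvests.

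Among the nuclear receptors, the family to which VDR belongs, 1 gene passed the test at 6 h and 5 at 24 h. Of 19 measured members 0 rose by limma (3 at an unadjusted p below 0.05) and 1 fell at 6 h, Nr4a1, an immediate early gene (−1.58 ± 0.44, limma adjusted p = 0.0315), a call that was lost without replicate 2 (adjusted p = 0.183) or 3 (0.138) and without the filter (0.0517). At 24 h 4 rose and 1 fell, with Rora, the clock-related orphan receptor, at 1.19 ± 0.24 (adjusted p = 0.00249) and Nr2f1 at −1.17 ± 0.29 (adjusted p = 0.0135). Rora lost its call without replicate 2 (0.150), and Nr2f1 without replicate 2 (0.0575) or 3 (0.221). Over all genes 4.11% rose and 2.55% fell at 6 h, and 4.39% and 2.89% at 24 h. With the block 5 members passed at 6 h and 8 at 24 h, against 18% and 19.8% of all genes. The count at 24 h was 3 without replicate 1, 0 without replicate 2 and 1 without replicate 3.

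Many genes that cyclic AMP is known to induce also fell after 0 h. Of 20 measured genes 0 rose and 12 fell at 6 h by limma, and 0 rose and 10 fell at 24 h (1 rose at an unadjusted p below 0.05 at either time), with median differences of −1.12 and −1.02, against 0.01 and 0.02 over all genes. The shares of all genes called were 4.11% higher and 2.55% lower at 6 h, and 4.39% and 2.89% at 24 h. Fosl1, a subunit of AP-1, differed by −2.97 ± 0.67 at 6 h (limma adjusted p = 0.00700), Ramp3 by −2.33 ± 0.25 (3.51e-06), Hk2, hexokinase 2, by −1.78 ± 0.48 (0.0257) and Cebpd by −1.76 ± 0.19 (3.51e-06). Rgs2, a regulator of G protein signalling, was at −2.28 ± 0.30 at 24 h (2.51e-05). Without replicates 1, 2 and 3 the number that fell was 7, 4 and 3 at 6 h, and 6, 6 and 4 at 24 h, and Fosl1 lost its call without replicate 1 (adjusted p = 0.169) or 3 (0.148), as did Hk2 without replicate 1 (0.152), 2 (0.124) or 3 (0.125). Ramp3 had been placed on this list with its fall known, and the list's direction is not independent of it. All these contrasts share the 0 h arrays with those of Vdr.

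The labelled cell type was checked by its markers. All 14 fibroblast markers on the array passed the filter, and of 22 markers of epithelium, endothelium, blood cells, muscle and neurons 7 did. Of all 12488 probe sets 7453 passed, so passing alone says little. The median intensity percentile among the probe sets was 98.7 for the fibroblast markers and 22.5 for the other markers. The epithelial marker Cdh1 (71.3) lay above the fibroblast markers Vim (46.0) and Pdgfrb (68.9) and below the rest of that list. Summed over the list, the intensities of the fibroblast markers ran from 114415 to 119098 at 0 h and from 123643 to 165179 later, without overlap. The other markers ran from 1920.3 to 2266.1 and from 1720.0 to 2657.9, with overlap. The higher sum did not reflect the list as a whole, whose median difference was −0.027 at 6 h and −0.0080 at 24 h. Of the 14 markers 2 rose at 6 h, Col3a1 (0.73 ± 0.18, limma adjusted p = 0.0147) and Pdgfra (0.54 ± 0.10, 0.00123), and 1 fell, Thy1 (−1.38 ± 0.20, 0.000113), while at 24 h 4 rose and 1 fell. Among all genes 4.11% were called higher and 2.55% lower at 6 h, and 4.39% and 2.89% at 24 h. The collagen genes Col1a1 and Col1a2 differed by −0.04 ± 0.12 and −0.02 ± 0.08 at 6 h. The part of these shifts in the fall of Vdr was not tested. The median intensity of an array lay between 166.8 and 200.7.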

How the data were processed

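Total RNA of 27 cultures was hybridised to 1 array each. The authors deposited linear probe set intensities, per the labels' protocols from Affymetrix arrays. For the summarisation algorithm, not given in the sources used here, no assumption was made, and detection calls were not used, so a low intensity cannot be told from background. The mean of each array after trimming 2% at each end lay between 500.28 and 500.35. Intensities, their ranges, medians and sums, the folds between lowest 0 h and highest later arrays, percentages left and halving times are on the deposited scale. Differences, tests and correlations are on log2 values after adding a pseudocount of 12.1 (the 10th percentile of all intensities) and quantile normalization. The lower 40% of probe sets by mean value and 66 controls were left out. Of all probe sets 10855 had 1 gene symbol, 396 had several and 1193 were not listed, and 10839 matched the mouse RefSeq table (GRCm38.p6). For genes with several probe sets the brightest stood for the gene (5643 genes).

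Differences were tested in R 4.3.3 with limma 3.58.1 (eBayes with intensity trend, Benjamini-Hochberg adjustment over all probe sets, threshold 0.05) and 1 fit of the 9 time means; the rhythm fit used the 24 arrays after 0 h. The code was tested on simulated data. Arrays of 1 experiment deviated together from the time means, with r from 0.426 to 0.642, 0.349 to 0.599 and 0.135 to 0.482 over 36 pairs each in experiments 1, 2 and 3, so the labels' experiment numbers paired the samples, and fits with the block were run as alternatives. The labels call the experiments biological replicates. Without the block, the fits of time means set differences against the spread of the arrays within a harvest, taken as independent. With the block, the experiment means were removed, and p-values measure the spread that remained. The number of arrays limits the precision. Genes named are the Vdr probe sets, the 10 most and 3 least like Vdr over 27 arrays, the 5 most like it over 24, the 10 widest gaps, and for each list up to 4 called members or the one with the smallest p, with partners, metabolism genes and factors named freely. Cdkn1a, Usp2, Col1a1 and Col1a2 were named outside this rule after their values were seen. The gene, its lists and the rule were chosen with earlier results of these data known. Alternatives changed the scaling, pseudocount, filter, variance model, array weights, block, period, time points and replicates.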

Additional observations from a re-analysis of the deposited data

How the results depend on the processing

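The fall of Vdr kept its direction on both probe sets under each alternative for which it was recomputed. With every 0 h array far above all later ones this outcome was fixed in advance, and nothing is read from it. The size of the fall depended on the pseudocount. With 1 the difference at 30 h on 99964_at was −5.64, and with 50 it was −4.96 at 18 h, −4.93 at 30 h and −4.32 at 48 h. On 99965_at 50 gave −2.91, −3.31 and −3.61 at 6 h, 24 h and 30 h and a halving time of 2.05 h. After 6 h, uncalled differences changed sign. On 99965_at 18 h minus 12 h became 0.016 as deposited, 0.012 with median centring and 0.030 without the 18 h and 30 h arrays of experiment 1, and 24 h minus 18 h became −0.040, −0.019 and −0.029. Array weights gave −0.055 for the latter and 0.15 for 48 h minus 24 h, and on 99964_at −0.0028 and −0.0092 for 48 h minus 42 h and minus 24 h. The trend of 99964_at was 0.088 without the 6 h arrays. The variation of 99964_at, a range of 1.19, passed with the replicate block (adjusted p = 0.0429) and with the block without the 12 h arrays, an alternative chosen after seeing the data (0.0447).

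Leaving out 1 replicate at a time, the uncalled differences on 99964_at ranged from −0.10 to 0.62 (36 h minus 30 h), −0.14 to 0.37 (48 h minus 42 h) and −0.19 to 0.28 (48 h minus 24 h). On 99965_at they ranged from −0.12 to 0.056 (18 h minus 12 h), −0.011 to 0.048 (24 h minus 18 h), −0.68 to 0.025 (42 h minus 36 h) and −0.26 to 0.29 (48 h minus 24 h). Called at 6 h were 111 to 334 probe sets, 2 to 4 factors, 0 to 1 nuclear receptors and 3 to 7 cyclic AMP targets. At 24 h these were 128 to 411, 2 to 6, 0 to 3 and 4 to 6.

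The probe sets called at 6 h and 24 h numbered 454 and 516, against 803 and 811 with array weights and 1245 and 1383 with the block. Nuclear receptors called were 3 at 24 h as deposited, 0 at 6 h without the filter, 3 at 6 h with array weights, and 5 and 8 with the block. Partners called were 1 with array weights at 6 h and 1 at either time with the block, which also called 1 gene of vitamin D metabolism at either time, 1 target and 7 factors at 6 h. Intensities near 100, where Vdr lay after 6 h, limit any statement on its late course.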
